A study of Homo sapiens with 8 samples.

Results

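The genes described here are 8 transcription factors of pancreatic and endodermal identity, GATA4, GATA6, HNF4A, FOXA1, FOXA2, PDX1, SOX9 and KLF5. The genes were chosen with earlier results of these data known. Their probes were taken by gene name from the scanner files of all arrays, and comprise 10 of the 34127 gene probes (8 of 27263 genes). GATA4 had 3 probes and each of the other genes had 1, and the FOXA1 probe was printed on 10 spots.

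The study silenced HOXB7, a homeobox gene, in 2 human cell lines derived from pancreatic ductal adenocarcinoma and asked which transcripts changed. MIA PaCa-2 cells and Capan-1 cells, the latter from a liver metastasis, were each profiled after transfection with a HOXB7-specific siRNA at 10 nM, with RNA taken at 48 hours, and as parental cells without siRNA. There were 2 one-color arrays in each of the 4 groups of line and treatment. None of the arrays held cells given a control siRNA, so the siRNA cannot be told apart from the transfection itself, and MIA PaCa-2 and Capan-1 were kept in different media. The labels call the arrays duplicates without saying that they came from separate cultures, so p-values measure only the spread between these arrays, which may be technical.

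Each value below is the log2 intensity of a probe minus the log2 of the 75th percentile over gene probes of that array, so 0 is a bright probe and about -6 is the dimmest level that the scanner software called well above background. Across arrays, 69.2% to 74.3% of gene spots were well above background. A probe entered the limma test if either group of a comparison had it called well above background in both duplicates, and a gene passed at a Benjamini-Hochberg adjusted p under 0.05 over all probes. The number of arrays limits the precision, since an exact permutation test of 2 against 2 arrays has a smallest p of 0.333. The lines lay on different slides, with siRNA and parental arrays at different positions, so slide and line, and position and treatment, cannot be told apart.

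GATA4 and GATA6 are zinc finger factors that open and activate endodermal genes. FOXA1 and FOXA2 are forkhead pioneer factors that act with them, HNF4A is a nuclear receptor of hepatic, intestinal and pancreatic epithelium, and KLF5 is a zinc finger factor of gut and ductal epithelium. PDX1 is required for pancreas formation and later for beta cells, and SOX9 marks pancreatic progenitors and duct cells. In pancreatic cancer, high GATA6 together with HNF and FOXA factors marks the classical, gland-forming subtype, and their loss marks the basal-like or quasimesenchymal one.

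For 4 of these genes the DNA just before the annotated starts is shown, because GATA6, FOXA1 and KLF5 carry the largest differences between the lines and HNF4A is the factor at the limit of detection. The sequences come from RefSeq on GRCh38.p14, each 150 bases ending 1 base before the start, on the strand of the gene. Capitals mark matches on either strand to the motif AGATAA bound by zinc finger factors of the GATA family, the forkhead motif TGTTTAC, the GC box GGGCGG and the CCAAT box.
GATA6, chr18:22169439-22169588, plus strand: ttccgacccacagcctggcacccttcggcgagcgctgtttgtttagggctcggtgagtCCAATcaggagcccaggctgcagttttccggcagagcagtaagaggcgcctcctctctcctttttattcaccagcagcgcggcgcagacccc
FOXA1, chr14:37595250-37595399, minus strand: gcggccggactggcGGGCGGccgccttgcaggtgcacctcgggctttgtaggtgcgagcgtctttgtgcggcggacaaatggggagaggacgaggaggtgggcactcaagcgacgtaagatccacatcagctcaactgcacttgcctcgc
KLF5, chr13:73058855-73059004, plus strand: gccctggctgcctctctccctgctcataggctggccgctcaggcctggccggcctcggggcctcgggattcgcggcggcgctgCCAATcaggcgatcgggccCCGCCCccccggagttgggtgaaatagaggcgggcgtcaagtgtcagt
HNF4A, first start, chr20:44355549-44355698, plus strand: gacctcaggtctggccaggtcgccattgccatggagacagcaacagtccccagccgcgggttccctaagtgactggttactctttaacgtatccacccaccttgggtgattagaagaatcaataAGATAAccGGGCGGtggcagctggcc
HNF4A, second start, chr20:44401089-44401238, plus strand: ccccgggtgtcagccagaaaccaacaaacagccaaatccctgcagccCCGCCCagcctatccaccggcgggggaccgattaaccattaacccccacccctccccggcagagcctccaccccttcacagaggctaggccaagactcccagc

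The first HNF4A start held AGATAA at position -26, a motif found in 9.17% of the 35116 windows of 250 bases in the table. The window of the second HNF4A start held a GC box at position -103. The forkhead motif, in 2.98% of windows, was in none of the sequences shown. GC boxes (42.6% of windows) and CCAAT boxes (32.0%) are common, and a match is a description of letters and not of a bound site. KLF5 has a further annotated start upstream whose window held none of these motifs.

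In parental cells, GATA6, KLF5, FOXA1 and FOXA2 were lower in MIA PaCa-2 than in Capan-1. The log2 difference was -8.09 for KLF5, -4.96 for FOXA1 and -4.40 for FOXA2, and GATA6, at background in MIA PaCa-2, was at least 143-fold lower. GATA4 and SOX9 were above background in both lines and did not pass the test, HNF4A was at the limit of detection in Capan-1 only, and PDX1 was not above background on any array. Of 6 tested members 4 passed, and the background was as high, since 71.8% of 20117 genes passed between the parental lines (31.7% lower and 40.1% higher in MIA PaCa-2). The size of the difference was less common. Only 4.22% of genes passed and were lower in MIA PaCa-2 by at least 4 on the log2 scale, and 1.37% were higher by as much. At an unadjusted p under 0.05 the share of probes was 72.7%. The cutoff of 4 was applied to the measured differences. Under the other background correction described below, GATA6, FOXA1 and FOXA2 differed by less than 4. The parental groups did not overlap for 86.5% of probes tested, and for 6 of the 8 member probes tested. GATA6 and KLF5 entered the test only through Capan-1, and of the 4 members above background on both arrays of each parental group, FOXA1 and FOXA2 passed.

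**Figure D1:**
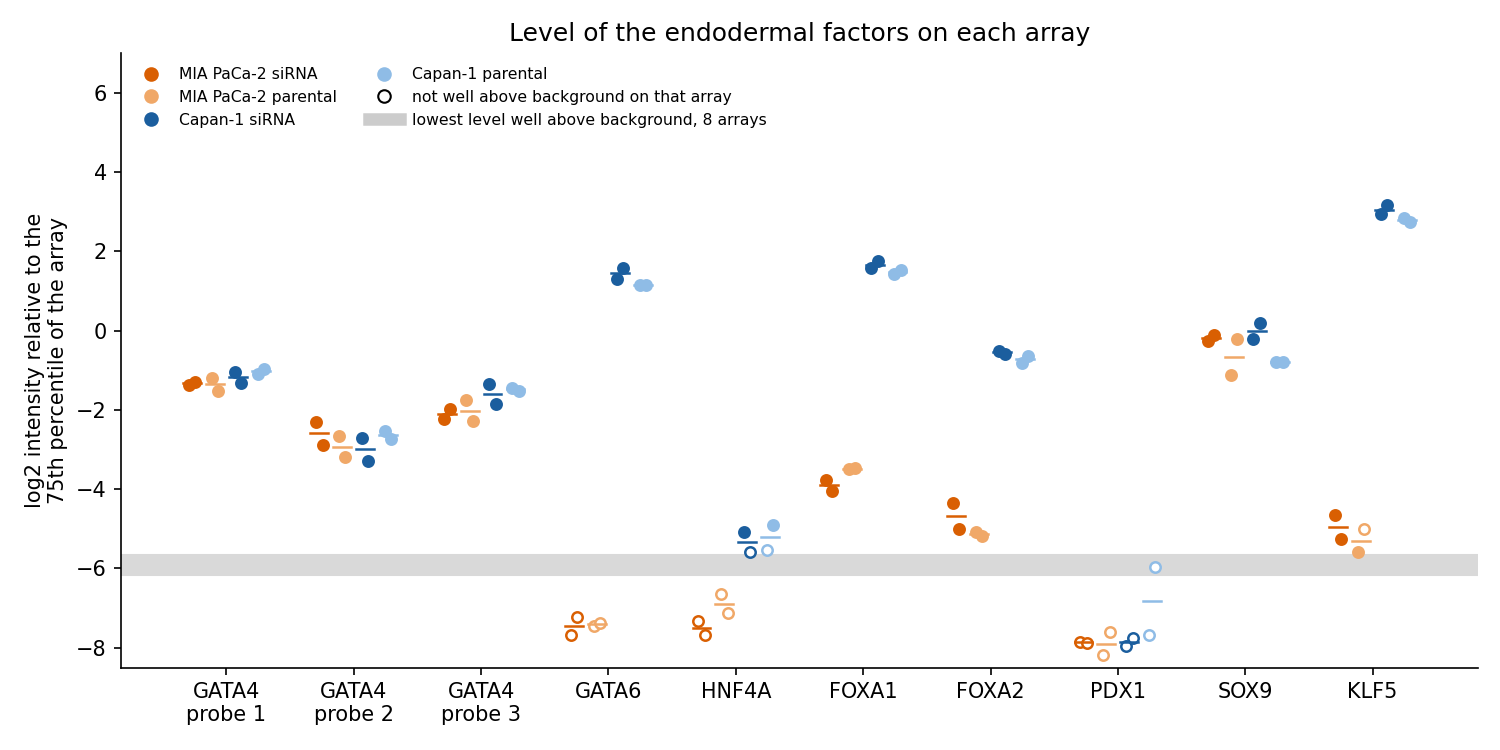
Log2 intensity relative to the 75th percentile of the array (y axis) for the 10 probes (x axis) on the 8 arrays; points are arrays, short bars are group means, open points are not well above background on that array, and the grey band spans the lowest level well above background on each array. GATA6, FOXA1, FOXA2 and KLF5 are separated by line, the GATA4 and SOX9 points of both lines lie close together, and no PDX1 point is filled. GATA4 probes 1 to 3 are A_23_P384761, A_33_P3293456 and A_33_P3360363.

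GATA6 was measured by 1 probe at chr18:18035791-18035850 (hg18, plus strand). In parental Capan-1 cells its log2 level was 1.16 and 1.15, and in parental MIA PaCa-2 cells it was -7.44 and -7.38, not well above background on either array. After siRNA the log2 level was 1.30 and 1.58 in Capan-1 and -7.68 and -7.22 in MIA PaCa-2. All 4 Capan-1 arrays were thus high and all 4 MIA PaCa-2 arrays were at background. GATA6 mRNA was at least 143-fold higher in parental Capan-1, computed against the limit of detection of the MIA PaCa-2 arrays, their dimmest signal well above background. The limma adjusted p of 5.21e-07 belongs to the measured log2 difference of -8.56 and not to this bound. That difference uses MIA PaCa-2 values not well above background, and GATA6 entered the test only through Capan-1.

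KLF5 was measured at chr13:72548980-72549039 (hg18, plus strand). Its log2 level in parental cells was 2.84 and 2.74 in Capan-1 against -5.58 and -5.01 in MIA PaCa-2, and in MIA PaCa-2 the first of these arrays was called well above background and the second was not. After siRNA it was 2.95 and 3.15 in Capan-1 and -4.65 and -5.26 in MIA PaCa-2, above background on all 4. The lines did not overlap, and KLF5 lay among the bright probes of Capan-1 and near the limit of detection in MIA PaCa-2. Parental Capan-1 had a 272-fold higher measured intensity (95% interval 174 to 424, limma adjusted p = 2.36e-06). This fold rests on MIA PaCa-2 values near the limit of detection, and KLF5 entered the test only through Capan-1. The interval does not cover the choice of background correction: with the other correction described below, the log2 difference was -4.89.

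FOXA1 was measured at chr14:37129297-37129356 (hg18, minus strand). In parental cells its log2 level was 1.44 and 1.52 in Capan-1 and -3.50 and -3.47 in MIA PaCa-2. After siRNA it was 1.58 and 1.74 in Capan-1 and -3.77 and -4.04 in MIA PaCa-2. FOXA1 was dim in MIA PaCa-2 but above background on each of the 10 spots of each array, and every Capan-1 array was higher. The median spot intensity on the parental arrays was 724 and 891 in Capan-1 and 29.5 and 23.6 in MIA PaCa-2. The lines differed 31.2-fold (95% interval 25.4 to 38.3, limma adjusted p = 8.66e-07).

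FOXA2 was measured at chr20:22510164-22510223 (hg18, minus strand). The log2 level of FOXA2 in parental cells was -0.81 and -0.63 in Capan-1 and -5.07 and -5.18 in MIA PaCa-2. After siRNA it was -0.51 and -0.58 in Capan-1 and -4.35 and -5.01 in MIA PaCa-2. Like FOXA1, it was detected on all 8 arrays with no overlap between the lines. Parental Capan-1 was 21.2-fold higher (95% interval 14.7 to 30.5, limma adjusted p = 1.08e-05).

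HNF4A was measured by a probe of 60 bases whose coordinates span 6278 bases of the plus strand (chr20:42469516-42475793, hg18) and therefore cross an intron. It is shown because it is the sequence whose signal sits at the limit of detection.
HNF4A probe: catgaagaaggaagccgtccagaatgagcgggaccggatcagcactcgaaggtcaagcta
The log2 level of HNF4A in Capan-1 was -5.54 and -4.89 in parental cells and -5.07 and -5.59 after siRNA, and the brighter array of each pair was well above background. In MIA PaCa-2 it was -6.64 and -7.13 in parental cells and -7.31 and -7.68 after siRNA, never above background. The 4 Capan-1 values were above the 4 MIA PaCa-2 values, but no group reached background on both arrays, so HNF4A was not tested. Its mean in parental Capan-1 was at least 1.72-fold above the limit of detection of the parental MIA PaCa-2 arrays, with 1 of 2 Capan-1 arrays measured.

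PDX1, at chr13:27397310-27397369 (hg18, plus strand), was not well above background on any array. Its log2 level was -8.18 and -7.61 in parental MIA PaCa-2, -7.85 and -7.88 after siRNA, -7.69 and -5.95 in parental Capan-1 and -7.94 and -7.76 after siRNA. One parental Capan-1 array was thus brighter than the other 7, without being called above background. PDX1 was not detectable by this probe in either line.

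SOX9 was measured at chr17:67633436-67633495 (hg18, plus strand). The log2 level of SOX9 in parental cells was -1.12 and -0.21 in MIA PaCa-2 and -0.80 and -0.80 in Capan-1. The MIA PaCa-2 values lay on both sides of the Capan-1 values. The log2 difference was 0.13 (95% interval -0.61 to 0.88, limma adjusted p = 0.712), so a difference within this interval was not detectable. The wide spread came from the duplicate MIA PaCa-2 arrays: without replicate 1 the log2 difference was 0.59, past the threshold with an adjusted p of 0.0497, and without replicate 2 it was -0.32.

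GATA4, on chromosome 8, was well above background with all 3 probes on all 8 arrays. With A_23_P384761 its log2 level in parental cells was -1.19 and -1.52 in MIA PaCa-2 and -1.10 and -0.96 in Capan-1. With A_33_P3360363 it was -1.74 and -2.29 in MIA PaCa-2 and -1.44 and -1.53 in Capan-1, and with A_33_P3293456 it was -2.65 and -3.20 against -2.54 and -2.74. The first and the second of these probes were lower on both MIA PaCa-2 arrays, and A_33_P3293456 overlapped between the lines. The log2 differences were -0.32, -0.53 and -0.28 (limma adjusted p = 0.101, 0.0924 and 0.435), so all 3 probes had the same sign and none passed. Without parental MIA PaCa-2 replicate 1, A_23_P384761 (-0.49, adjusted p = 0.0407) and A_33_P3360363 (-0.81, adjusted p = 0.0350) passed. GATA4 and GATA6 are close relatives, and the line in which GATA6 was at background still had GATA4 signal within 0.53 log2 units of the other line on each probe.

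The size of the differences depended on how background was treated. With a normexp background correction and offset of 50, which compresses dim probes, the log2 differences between parental lines were -3.36 for GATA6, -4.89 for KLF5, -3.33 for FOXA1 and -1.95 for FOXA2, all past the threshold. Under this correction the GATA4 probe A_33_P3360363 also passed, with a log2 difference of -0.37.

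After HOXB7 siRNA, none of the members passed the test in either line. The test covered 5 members for MIA PaCa-2 and 6 for Capan-1. Few genes passed at all: 2.26% of 19167 genes in MIA PaCa-2 (1.12% lower, 1.15% higher), and 1 of 18883 genes in Capan-1 (0.0053%, higher). At an unadjusted limma p under 0.05 there was 1 member in each line, FOXA1 in MIA PaCa-2 and SOX9 in Capan-1, where 20.4% and 12.5% of all tested probes lay under this limit. HOXB7 itself fell in MIA PaCa-2 from a log2 level of -4.82 and -4.10 to -7.77 and -7.78, at least 2.82-fold lower. Its limma adjusted p of 0.0173 belongs to the measured log2 fold change of -3.32, with the siRNA arrays not well above background. In Capan-1 HOXB7 went from -2.48 and -2.34 to -5.26 and -4.80, a change of -2.62 (95% interval -3.26 to -1.98). Its unadjusted limma p was 6.19e-05, and it did not pass after adjustment (limma adjusted p = 0.126). The MIA PaCa-2 call on HOXB7 was lost in 8 of 18 alternative settings (limma adjusted p from 0.00267 to 0.589), among them normexp, with a log2 fold change of -0.10, and each fit without 1 of the Capan-1 arrays. In Capan-1 HOXB7 passed in 5 of 18 settings (limma adjusted p from 0.0200 to 0.531).

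FOXA1 in MIA PaCa-2 had both siRNA arrays below both parental arrays. Its log2 fold change of -0.42 (SE 0.12, 95% interval -0.72 to -0.13) had an unadjusted limma p of 0.0130 and an adjusted p of 0.133. Groups did not overlap for 51.4% of probes tested in this line, so the separation is common. In Capan-1 both siRNA arrays were above both parental arrays, with a log2 fold change of 0.18 (95% interval -0.11 to 0.48, limma adjusted p = 0.566). With normexp the log2 fold change of FOXA1 in MIA PaCa-2 was -0.00957. The difference between both effects was -0.60 (95% interval -1.02 to -0.19), with an unadjusted limma p of 0.0123 and an adjusted p of 0.309. No member passed this test of a difference between the lines, in which 0.00486% of 20572 genes did and 11.1% of probes had an unadjusted p under 0.05.

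SOX9 in Capan-1 had log2 levels of -0.22 and 0.20 after siRNA against -0.80 and -0.80 in parental cells. The groups did not overlap, as for 54.2% of probes in this line. The log2 fold change was 0.79 (SE 0.30, 95% interval 0.04 to 1.53) and did not pass, with an unadjusted limma p of 0.0414 and an adjusted p of 0.386. SOX9 was the only member called by an alternative rule, an interval holding 99% of the log2 ratios between parental arrays. Of 23367 probes in Capan-1, this rule called 264 higher and 225 lower. In MIA PaCa-2 the SOX9 log2 levels were -0.27 and -0.10 after siRNA against -1.12 and -0.21, a log2 fold change of 0.48 (95% interval -0.27 to 1.22, limma adjusted p = 0.432) with overlapping groups. The test of a difference between the lines did not pass for SOX9 (-0.31, 95% interval -1.36 to 0.74, limma adjusted p = 0.819).

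**Figure D2:**
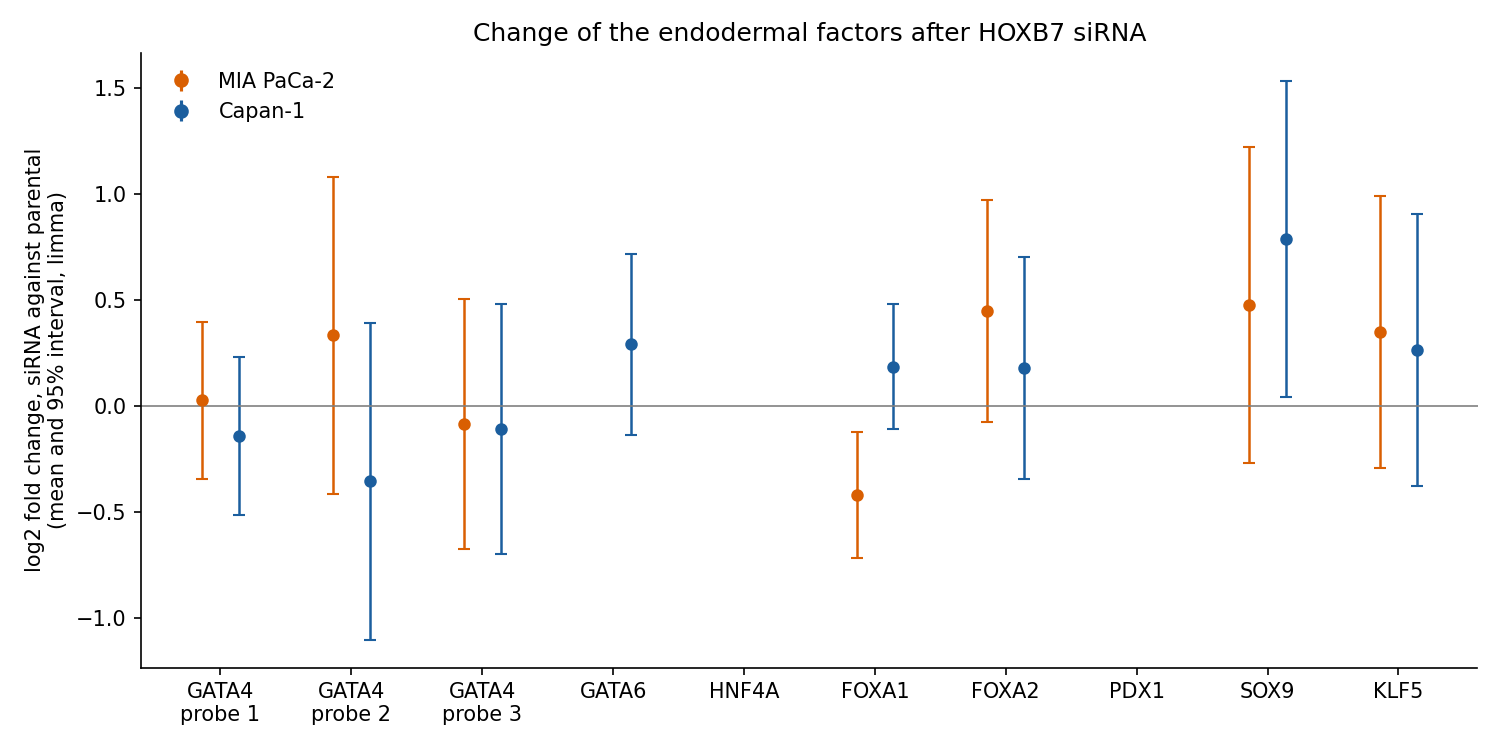
Log2 fold change of siRNA-treated against parental cells (y axis) for each probe tested (x axis) in MIA PaCa-2 (orange) or Capan-1 (blue), with means and 95% limma intervals over 2 arrays per group. All intervals but those of FOXA1 in MIA PaCa-2 and SOX9 in Capan-1 include 0, and neither of these passed after adjustment; HNF4A and PDX1 were not tested, and GATA6 only in Capan-1.

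The other members had intervals that include 0. For GATA6 in Capan-1 the log2 fold change was 0.29 (95% interval -0.14 to 0.71, limma adjusted p = 0.536), with both siRNA arrays higher. For FOXA2 it was 0.45 in MIA PaCa-2 (-0.08 to 0.97, adjusted p = 0.307) and 0.18 in Capan-1 (-0.35 to 0.70, adjusted p = 0.765), and the siRNA arrays were higher than the parental arrays in both. For KLF5 it was 0.35 in MIA PaCa-2 (-0.29 to 0.99, adjusted p = 0.507), where groups overlapped, and 0.26 in Capan-1 (-0.38 to 0.90, adjusted p = 0.708), where they did not. The GATA4 probes lay between -0.36 and 0.33 in the 2 lines, with overlapping groups for every probe and adjusted p of 0.593 or more.

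Scaled to the spike-in probes, FOXA1, FOXA2 and KLF5 in Capan-1 had log2 fold changes of -0.10, -0.11 and -0.02 in place of the positive values above, so their direction there depends on the scaling. That scaling moved the median of all probes by -0.29 in this comparison.

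The related factors showed a mixed picture between the parental lines. Of 24 tested factors of a list of 33 other pancreatic and endodermal factors, 12 passed as lower in MIA PaCa-2 and 6 as higher, with a median log2 difference of -0.59 against 0.10 over all genes. SOX2, a pluripotency and foregut factor, was at least 60.1-fold lower, ISL1 was at least 4.52-fold lower, and FOXA3, a paralog of FOXA1 and FOXA2, had a log2 difference of -3.89. In the other direction EOMES had a mean log2 level of -2.74 in parental MIA PaCa-2 and was not above background in parental Capan-1, NKX6-2 was at least 18.4-fold higher in MIA PaCa-2, and PAX6 and ONECUT1 were higher by 1.77 and 0.82 on the log2 scale.

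Factors of epithelial lineage were lower in 21 of 27 tested genes and higher in 3 in MIA PaCa-2, with a median log2 difference of -2.04. OVOL1, a repressor of mesenchymal programs, was at least 121-fold lower. The splicing regulators ESRP1 and ESRP2 had log2 differences of -4.12 and -4.32. TFAP2A was at least 60.9-fold higher, and CREB3L1 and KLF6 were higher by 0.76 and 0.45 on the log2 scale, KLF6 with 1 of 2 probes.

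Of 20 tested factors of basal-like or mesenchymal cells, 6 passed as lower and 8 as higher, with a median log2 difference of 0.03. ZEB1, which represses epithelial genes, was higher in MIA PaCa-2 by 4.91 on the log2 scale, FOXC1 was higher by 3.24, and TP63 was at least 6.73-fold higher. In the other direction, KLF7 was at least 11.5-fold lower, MEIS1 at least 24.5-fold, TWIST2 at least 1.70-fold, and RUNX3 had a log2 difference of -1.62. The list thus held both directions, and ZEB1 lay opposite to FOXA1, FOXA2, GATA6 and KLF5.

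Genes that define the classical subtype were lower in MIA PaCa-2 in 29 of 32 tested cases and higher in none. Of the 32, 13 were not above background on either parental MIA PaCa-2 array, so that their differences are bounds. The median log2 difference was -6.44 as measured and -5.77 with these genes at their bound. CEACAM6 was at least 1670-fold lower, TSPAN8 at least 1411-fold and TMEM45B at least 589-fold, and AGR2, a secretory protein of the endoplasmic reticulum, had a log2 difference of -10.67. Basal-like and quasimesenchymal subtype genes were lower in 24 of 41 and higher in 13, with a median log2 difference of -1.29, or -0.63 with the 9 genes below background in 1 line at their bound. In this list TNS4, LY6D and FGFBP1 had log2 differences of -8.00, -6.15 and -6.02 and KRT14 was at least 52.6-fold lower. AIM2 and SLC2A3 were at least 52.5-fold and 36.0-fold higher in MIA PaCa-2, and NT5E and CTSV were higher by 3.19 and 2.28 on the log2 scale.

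Of a list of 33 hepatic and intestinal genes, with targets of HNF4A among them, 12 were tested, since most were not above background. Of these, 6 passed as lower in MIA PaCa-2 and 5 as higher, with a median log2 difference of -1.96, or -1.30 with the 5 genes below background in 1 line at their bound. VIL1, an actin bundler of the brush border, was at least 69.6-fold lower, AKR1C4 at least 31.2-fold and DPP4 at least 10.5-fold, and TM4SF5 had a log2 difference of -4.52. TM4SF4, APOA1 and APOM were higher by 3.41, 1.51 and 1.46 on the log2 scale, and PCK1 at least 3.83-fold. HNF4A itself was detected on 2 of the 4 Capan-1 arrays.

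**Figure D3:**
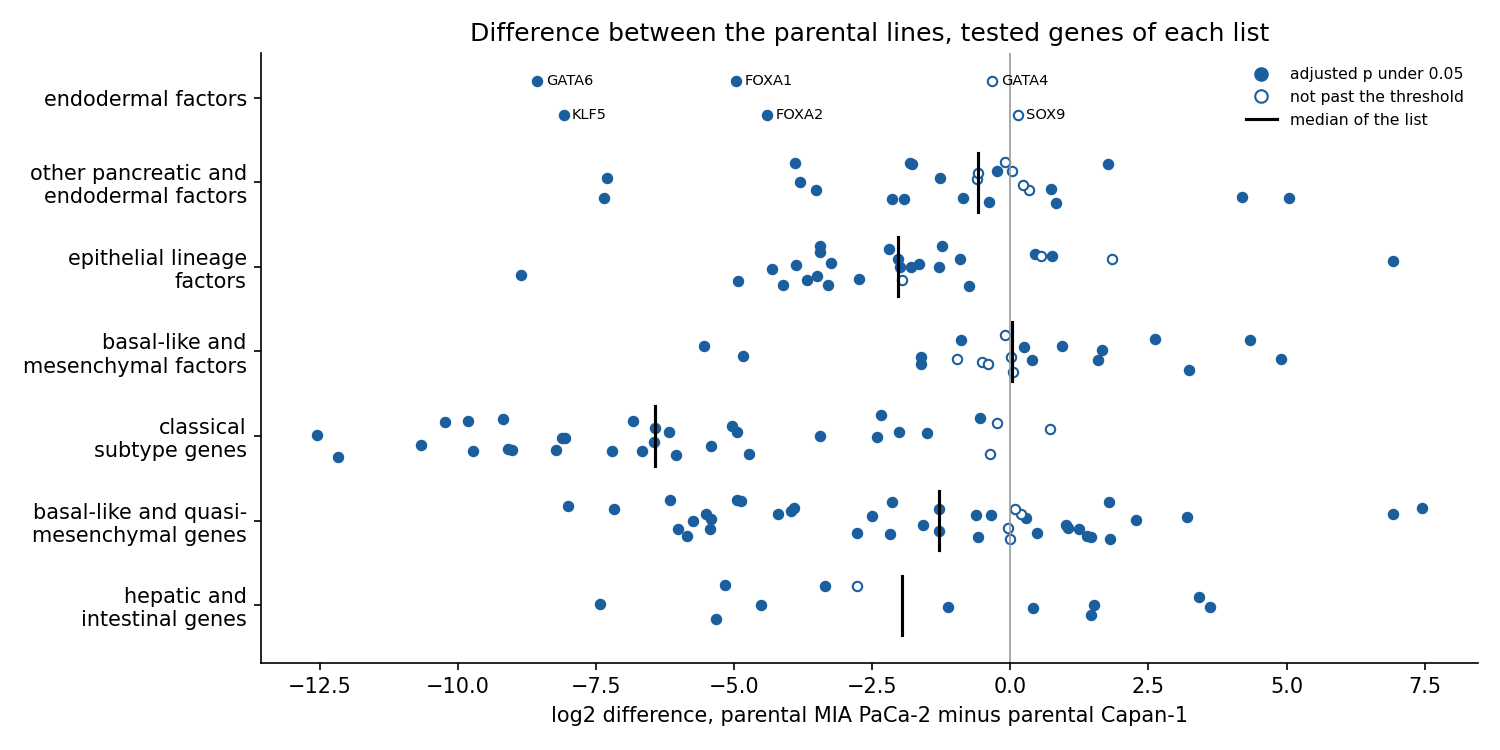
Log2 difference of parental MIA PaCa-2 minus parental Capan-1 (x axis) for the brightest tested probe of each gene of each list (y axis). Filled points are genes that passed by at least 1 probe with none passing in the other direction, and open points are the rest. The fill thus need not describe the probe drawn. Black lines are medians of the measured differences, drawn for the lists of related genes only. Genes below background in 1 line, GATA6 among them, are drawn at their measured difference. GATA6, KLF5, FOXA1 and FOXA2 lie to the left and GATA4 and SOX9 near 0, and the classical genes lie mostly left of 0 with a measured median of -6.44.

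After HOXB7 siRNA no gene of any of these lists passed the test in Capan-1. In MIA PaCa-2, EOMES, a T-box factor of early endoderm, rose by 0.90 on the log2 scale (limma adjusted p = 0.0313), and ELF3, an epithelial ETS factor, fell by 0.93 on the log2 scale (0.0323). PPARG rose by 0.61 with a dimmer probe, and its brighter probe, at 0.43, did not pass. Of subtype genes, S100P and ANXA10 of the classical list fell by 0.62 and 0.66, and UCA1 and TNS4 of the basal-like list fell by 0.57 and 0.97. None of these calls came with a call on a member. Most of these calls were lost with 1 array left out or under other settings: EOMES in 14 of 18 settings, ELF3 and TNS4 in 12 of 19, S100P and UCA1 in 13 of 19 and ANXA10 in 14 of 19. The limma adjusted p of ELF3 ranged from 0.00362 to 0.184.

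Markers of the cell type matched in part. Of 8 ductal epithelial markers, all 8 were above background on both arrays of each Capan-1 group and 5 of each MIA PaCa-2 group, where EPCAM, CDH1 and CFTR were at background, as GATA6 was. The summed level of these 8 markers, in units of the 75th percentile, was 1169 to 1238 in parental Capan-1, 1264 to 1286 after siRNA, 337 to 367 in parental MIA PaCa-2 and 330.1 to 331 after siRNA. MUC1 fell by 0.92 after siRNA in MIA PaCa-2 (limma adjusted p = 0.0249) with 1 of 2 probes, a call lost in 12 of 19 alternative settings (adjusted p up to 0.171). Acinar markers were above background in 3 of 7 in Capan-1 and 2 of 7 in MIA PaCa-2, and CPA1, CPB1, CTRB1 and PNLIP did not reach it on both arrays of any group. A set of leukocyte markers was above background in 7 of 7 and 6 of 7, with log2 levels in MIA PaCa-2 parental cells of up to 1.84 (CD14), and CD68 rose by 0.70 after siRNA in this line (limma adjusted p = 0.0456), a call lost in 13 of 19 settings (adjusted p up to 0.378). Endocrine markers were above background in 4 of 8 and 5 of 8, hepatocyte markers in 2 of 8 in both and endothelial markers in 2 of 6 in both. Fibroblast markers were above background in 1 to 3 of 8 in Capan-1 and 3 to 4 of 8 in MIA PaCa-2, where COL1A2 was at 3.83. The part of these markers in the results on the members was not tested. Each array held RNA of 1 cultured cell line and not of a tissue, so a marker above background is a signal from that culture. In bulk RNA, fewer cells expressing a gene and less RNA per cell cannot be told apart. The summed level of acinar markers was 7.48 to 12.4 in Capan-1, most of it PRSS1, and 0.478 to 0.506 in MIA PaCa-2, and that of fibroblast markers was 0.137 to 0.166 and 14.0 to 15.6. For leukocyte markers it was 3.09 to 3.29 and 4.70 to 5.14, for endocrine markers 0.931 to 1.13 and 1.19 to 1.33, for endothelial markers 0.303 to 0.366 and 0.417 to 0.437, and for hepatocyte markers 0.744 to 0.968 and 0.725 to 0.766.

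The genes with the most similar profile over the 8 arrays, after each profile was centered on its own mean, were found among 16324 genes. For GATA6 they were ARRDC4, NTN4 and OVOL1, at root mean square distances of 0.21 to 0.23 log2 units. For FOXA1 they were LAMP3, B3GNT5 and BAIAP2L2 (0.08 to 0.13), for FOXA2 CHN2, C1orf210 and FAM241A (0.09 to 0.16), and for KLF5 TCIM, LAMB3 and B3GNT3 (0.18 to 0.21). The 8 points of each profile share the slide with the line. For SOX9 they were SLC35F5, EDEM1 and PDIA4 (0.12 to 0.15), for GATA4 LRRC45, ZNF689 and UBAP2 (0.04 to 0.06), and for HNF4A HES1, SPON2 and GMPR (0.22 to 0.23). Under other scalings, chosen after the data were seen, between 0 and 3 of the 3 genes were shared for GATA4, GATA6, HNF4A, FOXA1 and KLF5, 1 to 3 for FOXA2 and 2 to 3 for SOX9.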

How the data were processed

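One-color Agilent arrays (8 in all, 2 per group of line and treatment) measured the RNA of both cell lines. The authors extracted spot intensity values with Agilent Feature Extraction 9.5.3, which subtracts background and detrends within the array, and deposited the intensity and flags of each spot. A deposited table of log2 values equals the log2 of these intensities and has no scaling between arrays. Per the file headers, probe coordinates are on hg18, and the flags (spot above background, outlier) are 0 or 1.

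Log2 intensities of unflagged spots were averaged per probe and the 75th percentile of each array was subtracted. The test was limma 3.58.1 under R 4.3.3, one fit of group means over all 8 arrays (two-sided, Benjamini-Hochberg over all tested probes), tested on simulated data, and other steps used Python 3.11.15 with pandas 2.3.3. Probes were named through their accession where it matched RefSeq (24827 probes), with the remaining names as symbol (1276), synonym (500) or in the file (7524). Named genes are the members, HOXB7, list genes past the threshold after siRNA, up to 4 genes of each list with the largest line difference in each direction, and the 3 genes nearest each member. Some genes that meet this rule are not reported here. The members and lists were chosen with earlier results of these data known. RefSeq windows were matched by symbol and are shown for 4 members. Alternatives were background correction, scaling, outlier spots, the table, filters, replicate block, intensity trend, each line alone, an interval rule and each array left out.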

Additional observations from a re-analysis of the deposited data

Results flagged for a closer look

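For FOXA1, both siRNA arrays of MIA PaCa-2 lay below the mean of their parental arrays (-0.28 and -0.56) and both of Capan-1 above it (0.10 and 0.27). Neither change passed (limma adjusted p = 0.133 and 0.566), and with spike-in scaling the Capan-1 value was -0.101, on the same side as MIA PaCa-2. The difference between the effects was -0.604, and by limma's interaction test it did not pass (adjusted p = 0.309). The GATA4 probe A_33_P3293456 lay above that mean on both MIA PaCa-2 arrays (0.62 and 0.04) and below it on both Capan-1 arrays (-0.06 and -0.66), with a difference of 0.689 (limma adjusted p = 0.603), and the other 2 GATA4 probes did not share this pattern.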

How the results depend on the processing

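The number of members past the threshold was 0 in both siRNA comparisons and in their difference under all alternatives but 1, the interval of the parental arrays, which gave 1 in Capan-1 (SOX9, higher). With 1 array left out it stayed at 0 in these 3 comparisons and was 4 to 6 between the parental lines, where 6 came without parental MIA PaCa-2 replicate 1 and added GATA4 and SOX9. Requiring all 8 arrays above background left 2 members past the threshold between the parental lines (FOXA1, FOXA2 of 4 tested). With normexp it was 5 there, GATA4 added. The replicate block gave 0 in the siRNA comparisons and 4 between the parental lines; the numbers did not pair the arrays (correlation of deviations 0.023 and 0.038), and it changed no call on a member.

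Some values changed sign. Without scaling and with spike-in scaling, GATA4 A_23_P384761 in MIA PaCa-2 was -0.188 and -0.0680, and with normexp in Capan-1 it was 0.000865. Scaled to spike-ins, Capan-1 FOXA1, FOXA2 and KLF5 were -0.101, -0.106 and -0.0212. In the difference between the lines' effects, KLF5 was -0.0669 with normexp and -0.00657 with quantile, and GATA4 A_33_P3360363 was -0.0236 with quantile and -0.0403 without scaling. With 1 array left out, A_23_P384761 was -0.14 to 0.19 in MIA PaCa-2 and A_33_P3360363 was -0.36 to 0.19 in MIA PaCa-2, -0.37 to 0.15 in Capan-1 and -0.25 to 0.29 in the difference. In that difference FOXA2 was -0.0607 to 0.60, KLF5 -0.22 to 0.39 and SOX9 -0.77 to 0.14, and between parental lines SOX9 was -0.32 to 0.59. The cause was not tested.

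The calls on all genes varied more: in MIA PaCa-2, 214 lower and 220 higher genes became 0 to 660 and 0 to 530 under other settings and 0 to 197 and 0 to 567 with 1 array left out. In Capan-1, 0 lower and 1 higher became 0 to 31 and 0 to 39, and 0 to 40 and 0 to 123 with 1 array left out. Of 188 values of the 10 list genes that the rule takes after siRNA in MIA PaCa-2, 118 lost the threshold, while 15 of 792 did so between parental lines, and none of either changed sign. The 188 include 19 values of the brighter PPARG probe, which had not passed and so had no call to lose. Dim probes (GATA6 in MIA PaCa-2, HNF4A, PDX1) set the limit of what could be measured.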
